A study of Mus musculus with 14 samples.

Results

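The tumours described here are mouse liver cancers that carry model antigens, with and without added Aoah. They are all 6 tumours labelled LucOS among the 14 tumours of the series, 3 given an Aoah plasmid and 3 given the empty vector, and were chosen by label. The other 8 tumours, labelled Luc, come from a MYC and luciferase plasmid without the antigens. Every tumour arose in a C57BL/6 mouse after plasmids were pushed into the liver by a fast, large-volume tail-vein injection, and was sequenced whole as polyA RNA. Both LucOS groups share a transposon in which the EF1a promoter drives MYC together with luciferase and the OVA, SIN and SIY antigens, and the SB100 transposase that inserts it. The Aoah group also received the PKT2/CLP plasmid with Aoah, and the vector group the same plasmid without it.

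The series text lists an N90-CTNNB1 plasmid, an activated beta-catenin, but does not tie it to particular tumours. The labels describe an anti-PD1 antibody schedule, and nothing ties it to these tumours. No age, sex or mouse of origin is given, so the p-values below measure the spread between these tumours and may miss spread between mice. The model has limits of its own: MYC stands under a constitutive promoter, and the plasmids enter only the hepatocytes that took them up.

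Aoah encodes acyloxyacyl hydrolase, a lipase made mainly by myeloid cells that trims fatty acyl chains from bacterial lipopolysaccharide and thereby ends its signalling through Tlr4. In the liver it is known from Kupffer cells. Healthy hepatocytes carry high levels of cytochromes P450, conjugating enzymes and secreted plasma proteins. Liver cancers tend to lose these genes, and inflammatory cytokines such as interleukin-6 lower P450 genes while raising acute phase genes. T cells and NK cells release interferon gamma, which induces chemokines such as Cxcl9 and Cxcl10 and the machinery of antigen presentation.

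The values are TPM (a transcript level scaled by gene length and to a fixed total per library), so levels can be compared between genes, but the number of reads behind a value is unknown. Between 11478 and 12836 genes stood at 1 TPM or more in the 6 tumours. Aoah tumour 3 stood apart: it took 16.6% of its TPM from mitochondrially encoded genes, against 3.51% to 6.51% in the other LucOS tumours, and had the highest summed levels of T cell and interferon gamma genes. A list of 14 genes kept as a check of RNA quality summed to 552 TPM in it, against 152 to 232 TPM in the other LucOS tumours. The part of RNA quality in the changes below was not tested. Vector tumour 2 had the highest hepatocyte enzyme levels of the 3 vector tumours. Hepatocyte identity was plain in all 6: albumin (Alb) stood at 4399, 3620 and 9415 TPM with Aoah and at 1298, 2722 and 1787 TPM with vector. In such bulk samples fewer cells of a type and less RNA per cell cannot be told apart.

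Aoah was measured first as a check of the labels. Aoah stood at 576, 589 and 931 TPM in Aoah tumours 1, 2 and 3 and at 1.28, 1.59 and 3.43 TPM in vector tumours 1, 2 and 3. The lowest Aoah tumour lay far above the highest vector tumour. The change was 7.84 on the log2(TPM + 1) scale, on which all fold changes below are given and which understates the change of low genes (SE 1.09, adjusted p = 0.0138, limma with Benjamini-Hochberg adjustment over all genes). The authors' deposited table gives a log2 fold change of 8.36 for the same gene. That SE pools the spread of all 14 tumours, among them 2 of the 4 Luc tumours labelled vector, replicates 1 and 3, which had Aoah at 18.6 and 54.8 TPM, against 0.74 and 0.89 TPM in replicates 2 and 4 and at least 284 TPM in the Luc Aoah tumours. In a fit on the LucOS tumours only, the SE was 0.33 (adjusted p = 5.5e-06), and without those 2 Luc tumours it was 0.34 (adjusted p = 1.21e-07). In the 14-tumour fit the adjusted p was 0.0532 without Aoah tumour 1 and 0.0594 without Aoah tumour 3. Reads from the plasmid and from the tumours' own Aoah gene are counted together.

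Of 13466 genes tested, 101 were higher with Aoah (0.75%) and 29 were lower (0.215%) at an adjusted p under 0.05, and the 2 groups did not overlap in any of these 130 genes. Groups that do not overlap were common: 837 genes (6.22%) lay wholly higher and 817 (6.07%) wholly lower. Changes above 0 were seen in 47.4% of all genes, and these shares are the background for the list counts below. The rises had a median of 1.95 and the falls a median of -1.61, while the median over all genes was -0.02. The plot of all genes shows rises reaching much further from 0 than falls. The authors' deposited table, from their own test, has 320 higher (2%) and 125 lower (0.779%) of the 16037 genes it adjusted. The counts depended strongly on single tumours. They were 11 higher and 2 lower without Aoah tumour 1, 12 and 2 without Aoah tumour 3, 32 and 30 without vector tumour 1, and 19 and 4 without vector tumour 3. They were 182 and 45 without Aoah tumour 2 and 299 and 54 without vector tumour 2. Of the 130 genes themselves, 119 were still called without Aoah tumour 2 and 114 without vector tumour 2. Only 13 were still called without Aoah tumour 1, 12 without Aoah tumour 3, 37 without vector tumour 1 and 17 without vector tumour 3, and this holds for the gene groups below. Without the Luc tumours labelled vector 1 and 3, chosen after seeing the data, 17 genes were higher and 5 lower, all 22 among the 130. That fit kept 3 calls among the P450 and conjugation genes described below, 2 among the glutathione and Nrf2 genes, 1 each among the lipogenesis, acute phase and plasma cell genes, and Aoah itself. No other list kept a call.

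**Figure D1:**
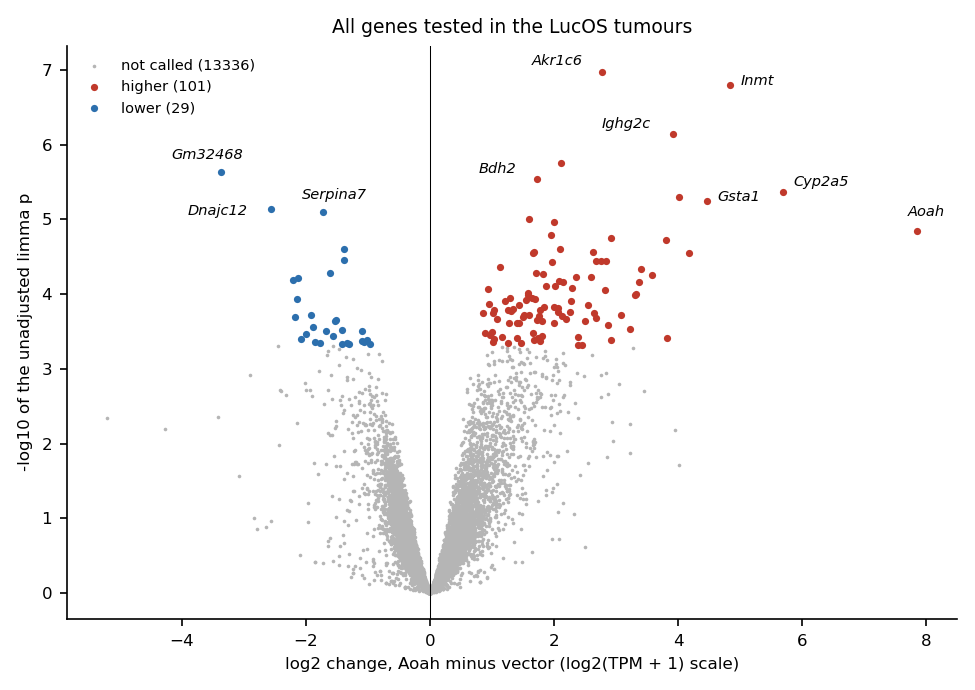
Each point is 1 of the 13466 genes tested: the horizontal axis gives the log2 change with Aoah and the vertical axis -log10 of its unadjusted limma p. Red points are the 101 genes called higher and blue points the 29 called lower. Aoah lies furthest to the right at 7.84, and Cyp2a5, Inmt and Gsta1 follow among the labelled genes.

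Only 9 genes were called in all 6 of the fits that left out 1 LucOS tumour. Among the 8 of them that rose were the P450 gene Cyp2a5, the methyltransferase gene Inmt, the glutathione transferase gene Gsta1, the aldo-keto reductase gene Akr1c6, the sulfotransferase gene Sult2a7, the short-chain dehydrogenase gene Bdh2 and the antibody heavy chain gene Ighg2c. The other 2 are predicted genes, Gm3776, which rose, and Gm32468, which fell. Akr1c6, Sult2a7, Bdh2 and the 2 predicted genes fall outside the rule that chose named genes, which leaves out predicted genes, and were picked after their values were seen. Most of the 130 were less stable: 65 rises and 12 falls were called in exactly 2 of the 6 fits.

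**Figure D2:**
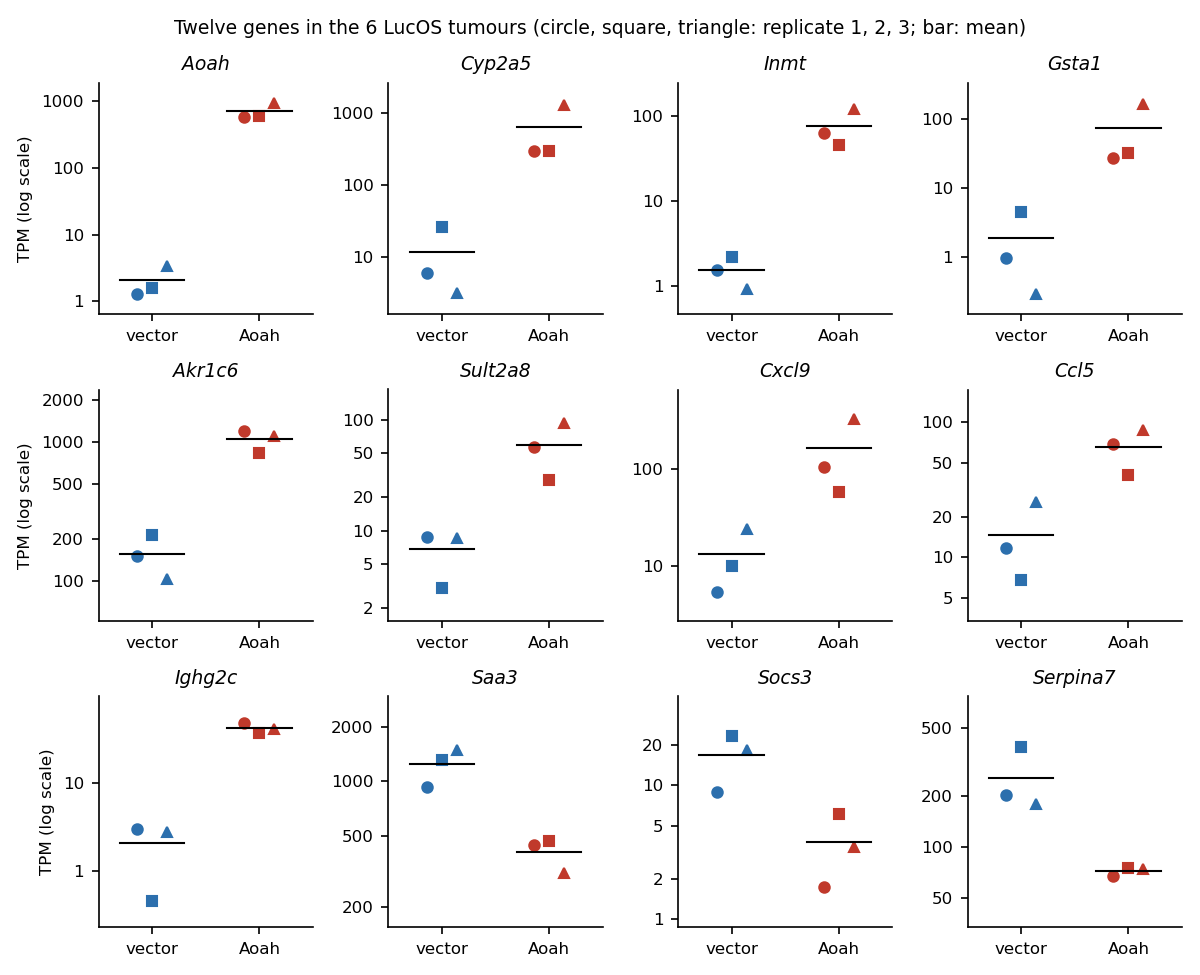
TPM of 12 genes in each LucOS tumour on log axes, vector in blue and Aoah in red, with circles, squares and triangles for replicates 1, 2 and 3 and bars for the group means. In every panel the 2 groups are apart, with Aoah tumours above in 9 panels and below for Saa3, Socs3 and Serpina7.

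Cytochromes P450 are the enzymes that oxidise drugs, steroids and fatty acids in hepatocytes, and some of their genes were among the largest rises. Of 44 tested genes on a list for P450s and conjugating enzymes, 14 rose and none fell (median 1.65, with 42 changes above 0 and 20 genes apart). Over all genes 0.75% rose, 6.22% lay wholly higher and 47.4% had changes above 0. The 14 hold conjugating enzyme genes, such as Sult2a8 and Inmt, as well as P450 genes. The list leaves out the P450 genes Cyp3a16 and Cyp3a44, which fell and are described below. With Aoah, Cyp2a5 measured 299, 296 and 1305 TPM, and with vector 6.03, 26.8 and 3.25 TPM. Aoah tumour 3 stood far above the other Aoah tumours, and vector tumour 2 was the highest of its group. The level of Cyp2a4 was 18.6, 18.4 and 148 TPM with Aoah and 3.81, 0.98 and 1.11 TPM with vector. The change was 3.82 for Cyp2a4 (SE 0.82, adjusted p = 0.0466) and 5.70 for Cyp2a5. All 4 tested Cyp2a genes had groups apart.

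Cyp2a5, a coumarin 7-hydroxylase, and Cyp2a4, a steroid hydroxylase more abundant in female liver, are close copies, and short reads may be shared between them. Their promoters are shown because the genes moved together and lie in 1 cluster. Over the 250 bases before each start site in RefSeq (build GRCm38.p6, plus strand, 5′ to 3′), 245 of 251 aligned columns were identical (97.6%), with 4 mismatches and a shift of 1 base at each end. Capitals mark the bases that differ. Cyp2a5 is at chr7:26835089-26835338 and Cyp2a4 at chr7:26306942-26307191.
Cyp2a5: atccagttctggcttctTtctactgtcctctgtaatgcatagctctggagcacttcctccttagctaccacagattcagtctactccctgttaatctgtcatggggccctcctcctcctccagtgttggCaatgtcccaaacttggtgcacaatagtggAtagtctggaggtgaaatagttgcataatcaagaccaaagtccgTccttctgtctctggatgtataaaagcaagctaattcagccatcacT
Cyp2a4: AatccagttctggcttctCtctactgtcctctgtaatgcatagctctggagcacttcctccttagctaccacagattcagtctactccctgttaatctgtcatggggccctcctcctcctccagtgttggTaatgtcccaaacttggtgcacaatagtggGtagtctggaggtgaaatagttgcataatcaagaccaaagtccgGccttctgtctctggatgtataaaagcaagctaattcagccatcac

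The Cyp2c genes, which encode arachidonate epoxygenases and drug-metabolising P450s, had changes above 0 in all 14 tested cases, and 4 rose. Cyp2c50 was measured at 46.5, 20.6 and 110.3 TPM with Aoah and at 0.49, 9.00 and 0.29 TPM with vector. Cyp2c54 reached 21.9, 9.06 and 53.6 TPM with Aoah, against 0.21, 4.74 and 0.05 TPM with vector. For Cyp2c29 the values were 76.5, 35.3 and 148 TPM with Aoah and 2.66, 27.1 and 4.03 TPM with vector. In each of these 3 genes vector tumour 2 stood far above the other vector tumours and below the lowest Aoah tumour. Cyp2c40, chosen after its values were seen, rose by 2.13. The fatty acid omega-hydroxylase genes Cyp4a10 and Cyp4a14, targets of the lipid sensor Ppara, rose by 2.83 and 2.45 (adjusted p = 0.0261 and 0.0499). Cyp4a10 stood at 14.8, 6.45 and 28.6 TPM in Aoah tumours 1, 2 and 3 and at 0.68, 2.05 and 0.91 TPM in vector tumours 1, 2 and 3. In the whole list for fatty acid oxidation these were the 2 rises among 25 genes (median 0.23).

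Other well-known P450 genes did not pass. Cyp1a2, a caffeine and arylamine oxidase, had a change of 2.95 (SE 0.95, adjusted p = 0.198). With Aoah, Cyp1a2 measured 49.6, 27.4 and 175 TPM, and with vector 1.81, 39 and 3.90 TPM. Cyp2e1, the ethanol-inducible P450, had a change of 1.88 (adjusted p = 0.234). The level of Cyp2e1 was 1104, 574 and 1565 TPM with Aoah and 104, 1110 and 169 TPM with vector. For both genes vector tumour 2 lay among the Aoah tumours. The summed level of the list shows the same overlap: 6341, 4837 and 10257 TPM with Aoah, and 1656, 5563 and 2112 TPM with vector. The count of rises was 2 without Aoah tumour 1 or without Aoah tumour 3, 3 without vector tumour 1 or without vector tumour 3, 27 without vector tumour 2, and 20 without Aoah tumour 3 and vector tumour 2 together.

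Some genes of conjugating enzymes, which attach chemical groups to their substrates, rose as well. Inmt, which methylates indoles and other amines, is the liver gene with the clearest gap. Inmt was measured at 63.2, 45.1 and 121 TPM with Aoah and at 1.53, 2.17 and 0.92 TPM with vector. The change was 4.84 (SE 0.52, adjusted p = 0.00108), and the ratio of group means was 49.6. Among 16 tested UDP-glucuronosyltransferase genes (Ugt), whose enzymes add glucuronic acid to bilirubin, steroids and drugs, 6 rose and none fell. Ugt2b1 reached 17.3, 10.1 and 45.9 TPM with Aoah, against 1.35, 4.24 and 1.12 TPM with vector. For Ugt2b36 the values were 200.3, 184 and 337 TPM with Aoah and 59.2, 109.5 and 41.3 TPM with vector. The groups were apart in 7 of the 16, all higher, against 6.22% of all genes.

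The Sult2a sulfotransferases act on bile acids and steroids, and 3 of 7 tested members rose. Sult2a8 stood at 56.6, 28.8 and 94.7 TPM in Aoah tumours 1, 2 and 3 and at 8.83, 3.04 and 8.56 TPM in vector tumours 1, 2 and 3. With Aoah, Sult2a7 measured 3.43, 2.56 and 5.39 TPM, and with vector 0.05, 0 and 0.18 TPM. Sult2a7 was nearly silent in all 3 vector tumours. Sult2a8 changed by 2.92 (SE 0.47, adjusted p = 0.0148) and Sult2a7 by 2.12 (SE 0.28, adjusted p = 0.00598). The members of this family are near-identical in places, as are those of the Ugt, Cyp2c, Akr1c and carboxylesterase families, so that reads may be split between them. The Cyp2a, Cyp2c, Cyp3a, Ugt, Sult2a and Akr1c counts above and below are over families taken by symbol after the values were seen.

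Glutathione transferases join glutathione to reactive compounds, and several are targets of the stress factor Nrf2. Of 25 tested genes in the glutathione and Nrf2 list 4 rose and none fell (median 0.97). The level of Gsta1 was 26.8, 32.2 and 165 TPM with Aoah and 0.97, 4.52 and 0.30 TPM with vector. Gsta2 was measured at 45.2, 33.5 and 107 TPM with Aoah and at 1.11, 11.6 and 1.38 TPM with vector. Nqo1 reached 5.34, 8.49 and 17.8 TPM with Aoah, against 1.12, 3.18 and 1.78 TPM with vector. Nqo1 encodes a quinone reductase and is a common readout of Nrf2. Reads may be shared between Gsta1 and Gsta2 as well, although their promoters were less alike than those of Cyp2a5 and Cyp2a4, with 72.2% of the aligned columns identical. Gstt1, a theta class transferase, rose by 1.40 (SE 0.29, adjusted p = 0.0354). Gsta3, the most abundant of these transferases at 1167, 852 and 1085 against 342, 752 and 318 TPM, just missed the threshold (change 1.24, adjusted p = 0.052). The list held 2 rises without Aoah tumour 1, 1 without Aoah tumour 3 or without vector tumour 3, 7 without Aoah tumour 2 and 11 without vector tumour 2.

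Carboxylesterases cleave esters, including lipids and prodrugs. All 11 tested members had changes above 0 (median 1.70) and 3 rose. For Ces1g the values were 18.1, 16.1 and 80.0 TPM with Aoah and 0.53, 6.64 and 1.04 TPM with vector. Ces3a stood at 33.3, 20.8 and 133 TPM in Aoah tumours 1, 2 and 3 and at 1.68, 11.1 and 2.20 TPM in vector tumours 1, 2 and 3. With Aoah, Ces2c measured 12.1, 10.1 and 27.2 TPM, and with vector 0.42, 4.04 and 1.20 TPM. Vector tumour 2 again was the highest vector tumour in each. Ces1d, a triacylglycerol hydrolase, had a change of 2.33 with overlapping groups (adjusted p = 0.112). None of the 11 passed without Aoah tumour 1, Aoah tumour 3, vector tumour 1 or vector tumour 3, and 9 passed without vector tumour 2. In the fit without Aoah tumour 3 and vector tumour 2 together 8 passed.

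The Akr1c enzymes reduce ketosteroids and other carbonyls. Of 7 tested genes 4 rose and none fell (median 1.70). The level of Akr1c6 was 1198, 838 and 1114 TPM with Aoah and 152, 216 and 103 TPM with vector. The 3 Aoah tumours lay close together, and the lowest stood far above the highest vector tumour. Akr1c20 was measured at 105, 78.2 and 124 TPM with Aoah and at 20.5, 41 and 17 TPM with vector. Akr1c14 and Akr1c19 rose by 2.60 and 1.70. Akr1c13 changed by 0.25 (adjusted p = 0.725), so the family did not move evenly. Akr1b7, an aldose reductase-like gene of another subfamily, fell, as described with the falls.

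Retinol genes followed in part. Of 18 tested genes of retinol handling 3 rose (median 0.76): the retinol dehydrogenase genes Rdh16 and Rdh16f2 and Cyp26a1, whose enzyme degrades retinoic acid and whose gene responds to it. Cyp26a1 reached 3.87, 3.26 and 3.78 TPM with Aoah, against 0.32, 1.16 and 0.26 TPM with vector. For Rdh16f2 the values were 16.9, 10.1 and 35.6 TPM with Aoah and 0.48, 7.86 and 0.42 TPM with vector. Vector tumour 2 lay close below the lowest Aoah tumour for Rdh16f2, while Cyp26a1 was well apart. None of the 3 passed in the fits without Aoah tumour 1, Aoah tumour 3, vector tumour 1 or vector tumour 3. The list had 8 rises without vector tumour 2.

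Secreted products of the hepatocyte moved less. Of 31 tested genes 2 rose and none fell (median 0.56). Ttr stood at 1071, 728 and 1655 TPM in Aoah tumours 1, 2 and 3 and at 236, 439 and 308 TPM in vector tumours 1, 2 and 3. With Aoah, Apoc3 measured 1165, 1047 and 1718 TPM, and with vector 237, 678 and 199.6 TPM. Ttr carries thyroid hormone and retinol, and Apoc3 slows the clearance of triglyceride-rich particles. Alb had groups apart and a change of 1.52 that did not pass (SE 0.50, adjusted p = 0.188). Thrsp, which supports fat synthesis, was the 1 rise among 17 lipogenesis genes. The level of Thrsp was 288, 191 and 239 TPM with Aoah and 25.7, 92.1 and 21.6 TPM with vector. Upp2, a uridine phosphorylase of the liver, rose by 3.32 (SE 0.63, adjusted p = 0.0276). Upp2 was measured at 76, 55 and 203 TPM with Aoah and at 3.20, 18.1 and 10.0 TPM with vector. Bdh2, which encodes a short-chain dehydrogenase, was low in every tumour with the groups clearly apart. Bdh2 reached 5.09, 3.47 and 4.30 TPM with Aoah, against 0.62, 0.88 and 0.29 TPM with vector. Without Aoah tumour 1, Aoah tumour 3, vector tumour 1 or vector tumour 3 no gene of the secreted list passed, and without vector tumour 2 it had 8 rises.

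Several central liver programmes gave no calls. No gene passed among 26 for bile acid synthesis and transport (median 0.48), 24 for cholesterol synthesis (0.36), 24 for amino acid breakdown and urea (0.51), 14 for glucose output (0.99), 23 for hepatocyte transcription factors (0.01) and 21 beta-catenin targets (0.51). Of all genes tested 0.965% passed, so lists of this size hold few or no calls at that share. The same applies to the lists below that gave no call. Groups lay wholly higher in 4 of the 24 amino acid and urea genes, 3 of the 14 for glucose output and 3 of the 23 transcription factors. They did so in 2 of the 21 beta-catenin targets, 1 of the 24 cholesterol genes and 0 of the 26 bile acid genes. Of all genes 6.22% lay wholly higher. Cyp7a1, the rate-limiting enzyme of bile acid synthesis, stood at 60.1, 26.7 and 39.4 TPM with Aoah and 1.13, 29.5 and 1.36 TPM with vector, a change of 2.93 with an SE of 0.87 (adjusted p = 0.152). Bhmt, which remethylates homocysteine, stood at 577, 422 and 923 TPM against 69.5, 515 and 77.8 TPM (change 2.10, adjusted p = 0.128). In both genes vector tumour 2 overlapped the Aoah tumours. All 24 amino acid and urea genes had changes above 0, against 47.4% of all genes.

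Liver genes with a known bias towards females moved in both directions. Of 22 female-biased genes 2 rose (Cyp2a4 and Cyp2b9) and 3 fell (Cyp3a16, Cyp3a44 and Prom1). For Cyp2b9 the values were 6.08, 1.84 and 13.2 TPM with Aoah and 0, 0.41 and 0 TPM with vector. Among 17 tested male-biased genes none passed (median 0.93). The major urinary protein genes Mup3, Mup7, Mup11 and Mup21 on that list had changes of 1.31, 1.28, 1.67 and 1.34. The sex of the mice is not given. Without vector tumour 3 or without Aoah tumour 3 none of the 5 female-biased calls held.

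The 29 falls were smaller in number and size. The predicted gene Gm32468 fell furthest, by 3.36 on the log2 scale. Gm32468 stood at 0.68, 6.69 and 1.04 TPM in Aoah tumours 1, 2 and 3 and at 21.4, 26.1 and 46.1 TPM in vector tumours 1, 2 and 3. Dnajc12, a co-chaperone of aromatic amino acid hydroxylases, fell by the most among genes with established names. With Aoah, Dnajc12 measured 18.3, 35.6 and 14.4 TPM, and with vector 119.8, 89 and 206 TPM. The change was -2.57 (SE 0.38, adjusted p = 0.00969). Serpina7, which encodes thyroxine-binding globulin, was the steadiest of the named falls. The level of Serpina7 was 66.8, 75.2 and 73.4 TPM with Aoah and 201, 387 and 178 TPM with vector. Its change of -1.73 (SE 0.26, adjusted p = 0.00974) passed in 5 of the 6 fits that left out 1 tumour.

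Genes of fetal liver, stem-like cells and tumour tissue leaned lower. Of 24 tested genes on that list 2 fell and none rose (median -0.56, with 5 changes above 0). Prom1 was measured at 4.38, 13.4 and 4.36 TPM with Aoah and at 23.4, 35.1 and 40.2 TPM with vector. Prom1 encodes the stem cell surface protein CD133. Peg3 reached 0.68, 3.47 and 0.98 TPM with Aoah, against 3.89, 10.1 and 12.1 TPM with vector. Peg3 is an imprinted gene of growing tissue. Gpc3, a heparan sulfate proteoglycan used as a marker of hepatocellular carcinoma, had groups apart at 35.1, 55.9 and 10.6 TPM against 153, 116 and 199 TPM and did not pass (change -2.41, adjusted p = 0.0985). The fetal albumin homologue Afp overlapped at 466, 1117 and 93.9 TPM against 1325, 704 and 2225 TPM (change -1.80, adjusted p = 0.313). Without Aoah tumour 1, Aoah tumour 3 or vector tumour 3 neither fall held, and without Aoah tumour 2 the list had 6 falls.

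Some P450 genes fell, and these belong to the Cyp3a family. For Cyp3a16 the values were 9.24, 5.88 and 2.85 TPM with Aoah and 22.4, 20.8 and 51.9 TPM with vector. Cyp3a44 stood at 2.91, 4.19 and 1.57 TPM in Aoah tumours 1, 2 and 3 and at 23.9, 8.20 and 17.8 TPM in vector tumours 1, 2 and 3. These are 2 of 9 tested Cyp3a genes, a family of steroid and drug oxidases, and the only ones called. With Aoah, Akr1b7 measured 16.1, 23.8 and 13.1 TPM, and with vector 36.5, 97.1 and 149 TPM. Akr1b7 reduces lipid aldehydes. The level of Fgf15 was 0.11, 0.95 and 0.38 TPM with Aoah and 4.15, 4.76 and 6.61 TPM with vector. Fgf15, better known as the gut hormone that represses bile acid synthesis through Cyp7a1, changed by -2.08 (SE 0.46, adjusted p = 0.0479). It stood below 1 TPM in all 3 Aoah tumours.

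Acute phase genes, which hepatocytes raise under interleukin-6, leaned lower. Of 27 tested genes 1 fell, and 24 had changes below 0 (median -0.70). Saa3 was measured at 443, 467 and 308 TPM with Aoah and at 929, 1313 and 1494 TPM with vector. Saa3, an inflammation-induced serum amyloid A, changed by -1.61 (SE 0.29, adjusted p = 0.0217). Other members varied widely. Saa1 stood at 1435, 907 and 1442 TPM with Aoah and 855, 10189 and 1462 TPM with vector, so that vector tumour 2 alone was high. The fibrinogen gene Fga had groups apart at 1173, 1221 and 1396 TPM against 1447, 5258 and 3516 TPM and did not pass (change -1.25, adjusted p = 0.19). The list's summed level ran from 14527 to 22560 TPM with Aoah and from 14311 to 67755 TPM with vector. Saa3 did not pass without Aoah tumour 1, Aoah tumour 3 or vector tumour 3, while the list had 4 falls without vector tumour 1.

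Socs3, the feedback inhibitor that interleukin-6 induces through Stat3, was the 1 fall among 19 tested interleukin-6 and Stat3 targets (median -0.31). Socs3 reached 1.74, 6.14 and 3.44 TPM with Aoah, against 8.94, 23.2 and 18.4 TPM with vector. The change was -1.92 (SE 0.39, adjusted p = 0.0335). Il6 itself was scattered. For Il6 the values were 0.09, 14.3 and 0.19 TPM with Aoah and 3.98, 15.7 and 142 TPM with vector. Aoah tumours 1 and 3 were near 0, and Aoah tumour 2 lay between vector tumours 1 and 2 (change -3.07, SE 1.22, adjusted p = 0.32). Lipopolysaccharide sensing is where Aoah acts, and here 1 of 24 genes rose, Aoah, and 1 fell, the neutrophil attractant Cxcl1 (median 0.02). Cxcl1 stood at 18.4, 53.3 and 24.7 TPM in Aoah tumours 1, 2 and 3 and at 98.7, 81.6 and 166 TPM in vector tumours 1, 2 and 3. Cd14, the co-receptor that hands lipopolysaccharide to Tlr4, had groups apart at 4.80, 6.47 and 9.91 TPM against 15.3, 30.0 and 23.2 TPM, with a change of -1.57 just outside the threshold (adjusted p = 0.0503).

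The Socs3 promoter is shown with its match to the gamma-activated site, the element that Stat proteins bind, searched as TTCNNNGAA. These letters read the same on both strands. The match, in capitals, lies from -154 to -146, counted from the start site, and 8.13% of all RefSeq promoters of this length hold the motif. The region is chr11:117969367-117969616 on the minus strand of GRCm38.p6, printed 5′ to 3′.
Socs3: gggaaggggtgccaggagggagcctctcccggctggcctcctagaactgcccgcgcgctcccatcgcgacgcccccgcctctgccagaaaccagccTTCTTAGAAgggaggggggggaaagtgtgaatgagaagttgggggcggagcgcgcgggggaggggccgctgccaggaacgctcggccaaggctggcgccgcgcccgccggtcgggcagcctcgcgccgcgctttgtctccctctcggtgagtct

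Genes induced by interferon gamma had higher levels with Aoah. All 27 tested genes had changes above 0 (median 1.56), 14 had groups apart and 4 rose: Cxcl9, Cxcl10, Gbp10 and Tgtp1. The shares over all genes were 47.4% above 0, 6.22% wholly higher and 0.75% called higher. With Aoah, Cxcl9 measured 105, 58.5 and 329.8 TPM, and with vector 5.43, 9.90 and 24.2 TPM. The level of Cxcl10 was 52.8, 28.3 and 145 TPM with Aoah and 11, 7.24 and 15.2 TPM with vector. Both chemokines draw T cells that carry the receptor Cxcr3. Gbp10 was measured at 7.77, 5.65 and 60.6 TPM with Aoah and at 0.21, 0.57 and 2.18 TPM with vector. Tgtp1 reached 146, 100.4 and 378 TPM with Aoah, against 14.5, 35.3 and 68.9 TPM with vector. Gbp10 and Tgtp1 encode GTPases that attack intracellular microbes, and both belong to families with close copies. In all 4 genes Aoah tumour 3 was the highest, and the summed level of its T cell genes and its mitochondrial share were the highest as well. The part of these in the rises was not tested.

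Cxcl9 changed by 3.40 (SE 0.60, adjusted p = 0.0207), Gbp10 by 3.07 (adjusted p = 0.0335), Cxcl10 by 2.39 (adjusted p = 0.0466) and Tgtp1 by 2.39 (adjusted p = 0.0499). The summed level of the list was 1214, 845 and 3690 TPM with Aoah and 208, 502 and 657 TPM with vector, so the groups were apart. None of the 27 genes passed without Aoah tumour 1, Aoah tumour 3 or vector tumour 1, 1 passed without vector tumour 3, 2 without vector tumour 2, and 15 passed without Aoah tumour 2. Without Aoah tumour 3 and vector tumour 2 together 1 passed. Ifng, the cytokine gene, stood at 0.79, 0.41 and 2.33 TPM with Aoah and 0.15, 0.04 and 0.66 TPM with vector (change 0.69, adjusted p = 0.353).

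The type I interferon genes also leaned higher, with a lower median than the interferon gamma genes. Of 29 tested genes 28 had changes above 0, against 47.4% of all genes, and the median was 0.38. None passed and none had groups apart. Over all genes 0.965% passed, 6.22% lay wholly higher and 6.07% wholly lower. Zbp1, a sensor of unusual nucleic acids, stood at 18.1, 14.5 and 74.7 TPM with Aoah and 3.97, 20.8 and 27.6 TPM with vector. Its highest value was again in Aoah tumour 3, while Aoah tumours 1 and 2 lay below vector tumours 2 and 3. The difference between the 2 lists was not tested.

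The Cxcl10 promoter is shown because it holds an interferon-stimulated response element, searched on both strands as GAAA followed, after 2 bases of any kind, by GAAA again. The match, in capitals, lies from -213 to -204, counted from the start site. The region is chr5:92348890-92349139 on the minus strand of GRCm38.p6, from RefSeq, printed 5′ to 3′.
Cxcl10: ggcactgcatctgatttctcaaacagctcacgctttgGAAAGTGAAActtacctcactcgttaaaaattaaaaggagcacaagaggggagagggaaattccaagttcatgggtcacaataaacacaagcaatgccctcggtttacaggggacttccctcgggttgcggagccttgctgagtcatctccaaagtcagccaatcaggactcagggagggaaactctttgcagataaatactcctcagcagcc
Of all 27025 genes with a RefSeq promoter, 3.46% hold this motif in the 250 bases. Among the 74 of the 101 rising genes that matched the table by symbol 9 held it (12.2%), among them Cxcl10, Tgtp1, Sult2a8, Ugt2b1, Akr1c14 and Gstt1. Of the 17 matched interferon gamma genes 10 held it (58.8%). The gamma-activated site was found in 7 of the 74 rising genes (9.46%), near its share of 7.47% in matched tested genes and 8.13% in all genes. Cxcl9 held neither motif in this window. A match is only a run of letters.

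Antigen presentation genes had few calls. Of 21 genes for MHC class I presentation 1 rose, the immunoproteasome subunit gene Psmb9, which shapes peptides for class I (median 1.06). For Psmb9 the values were 99.9, 88.5 and 187 TPM with Aoah and 17.4, 26.5 and 50.4 TPM with vector. Its partner Psmb8 had groups apart and fell short of the threshold (change 1.46, adjusted p = 0.0561). The class I genes of minor form H2-Q1 and H2-M2, chosen after their values were seen, rose by 2.09 and 2.65. H2-Q1 stood at 2.90, 2.86 and 8.99 TPM in Aoah tumours 1, 2 and 3 and at 0.07, 0.73 and 0.05 TPM in vector tumours 1, 2 and 3. Among 11 class II genes none passed (median 1.57). H2-Aa stood at 386, 312 and 1102 TPM against 66.5, 100.4 and 295 TPM, a change of 2.02 with an SE of 0.55 (adjusted p = 0.104). The transactivator gene Ciita stood at 2.27, 1.56 and 7.20 TPM against 0.39, 0.60 and 1.03 TPM (change 1.31, adjusted p = 0.089). The call for Psmb9 was lost without Aoah tumour 1, Aoah tumour 3 or vector tumour 1.

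**Figure D3:**
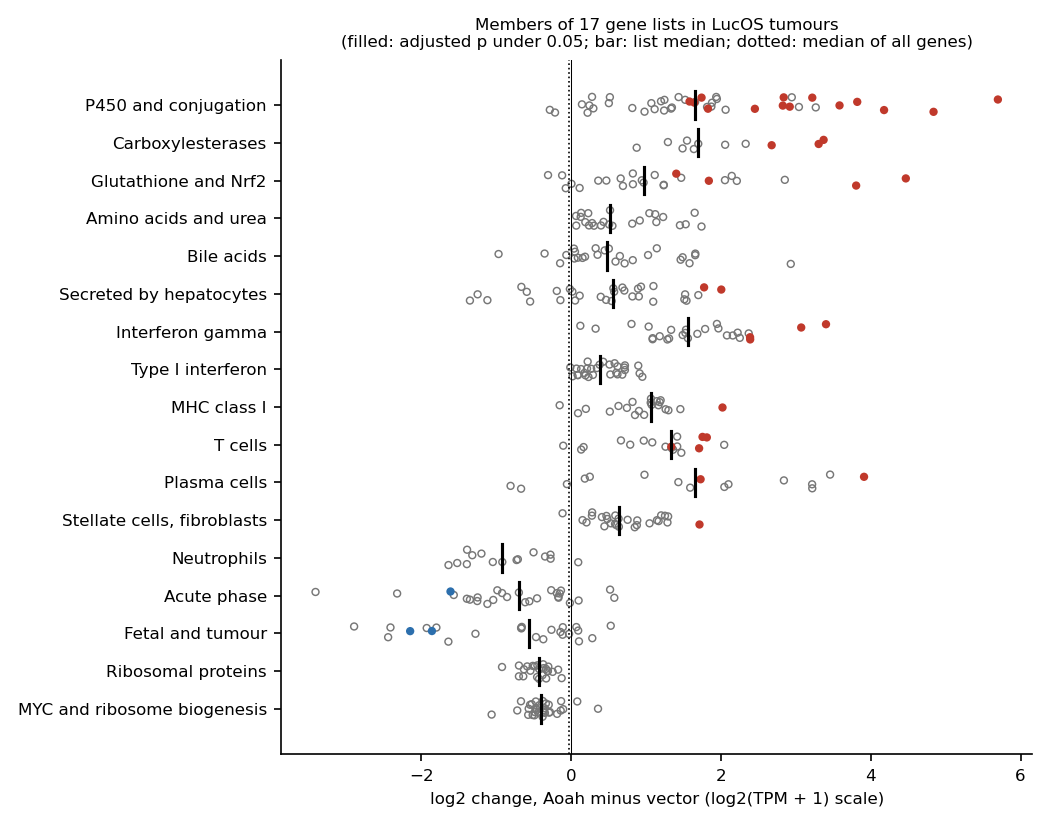
Each point is a tested member of 1 of 17 gene lists, placed by its log2 change with Aoah. Filled points passed the test, bars mark list medians and the dotted line the median of all genes at -0.02. Medians run from 1.70 for carboxylesterases to -0.92 for neutrophil genes, and the ribosomal protein genes form a narrow band below 0.

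T cell genes had higher levels with Aoah. Of 18 tested genes 4 rose, 12 had groups apart and 17 had changes above 0 (median 1.34). The shares over all genes were 0.75% called higher, 6.22% wholly higher and 47.4% above 0. With Aoah, Trbc2 measured 30.3, 23 and 44.8 TPM, and with vector 10.9, 4.83 and 11.8 TPM. The level of Cd3g was 13.3, 7.67 and 25.7 TPM with Aoah and 3.54, 1.95 and 4.70 TPM with vector. Zap70 was measured at 2.69, 1.67 and 4.69 TPM with Aoah and at 0.45, 0.30 and 0.84 TPM with vector. Trbc2 and Cd3g encode parts of the T cell receptor complex, and Zap70 the kinase that relays its signal. Thy1 reached 11.5, 8.60 and 9.38 TPM with Aoah, against 3.10, 1.25 and 2.87 TPM with vector. Thy1 marks mouse T cells and also some fibroblasts. The summed level of the list was 138, 89.4 and 219 TPM with Aoah and 52.6, 25.6 and 55.3 TPM with vector. Aoah tumour 2 was the lowest and Aoah tumour 3 the highest of their group. No T cell gene passed without Aoah tumour 1, Aoah tumour 3 or vector tumour 3, 1 passed without vector tumour 1 and 7 without Aoah tumour 2.

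Among 18 tested genes of CD8 and cytotoxic cells 1 rose, and all 18 had changes above 0 (median 1.19). For Ccl5 the values were 68.2, 40.7 and 86.4 TPM with Aoah and 11.7, 6.82 and 25.6 TPM with vector. Ccl5 encodes a chemokine that activated T cells and NK cells release (change 2.19, SE 0.45, adjusted p = 0.0343). The co-receptor gene Cd8a stood at 3.80, 2.27 and 8.81 TPM against 0.92, 0.80 and 2.76 TPM, with vector tumour 3 above Aoah tumour 2. The granzyme gene Gzmb did not separate at 15.4, 11.4 and 10.3 TPM against 11.8, 2.14 and 6.62 TPM (change 0.97, adjusted p = 0.433). Of 16 checkpoint and exhaustion genes none passed (median 0.47). The inhibitory receptor gene Pdcd1, which encodes PD-1, stood at 2.61, 2.37 and 9.10 TPM against 0.49, 0.72 and 2.82 TPM (change 1.22, adjusted p = 0.214). Ccl5 did not pass without Aoah tumour 1, Aoah tumour 3, vector tumour 1 or vector tumour 2.

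Antibody genes were among the clearest immune rises. Of 16 tested plasma cell genes 2 rose (median 1.66), and 8 had groups apart, all higher, against 0.75% and 6.22% of all genes. Changes were above 0 in 13 of the 16 and below 0 in 3. Xbp1, also on that list, was not called, and its change ran from -1.15 to -0.56 over 18 alternative settings. Ighg2c stood at 47.7, 36.3 and 40.7 TPM in Aoah tumours 1, 2 and 3 and at 3.02, 0.46 and 2.79 TPM in vector tumours 1, 2 and 3. Ighg2c, the IgG2c constant region of C57BL/6 mice, changed by 3.91 (SE 0.48, adjusted p = 0.00325), and the 3 Aoah tumours were close to each other. With Aoah, Iglc2 measured 5.82, 4.21 and 4.77 TPM, and with vector 1.18, 0.31 and 0.97 TPM. Iglc2 encodes a lambda light chain and has near-identical copies. Igkc, the kappa light chain, had groups apart at 498, 393 and 173 TPM against 115, 9.02 and 21.2 TPM without passing (change 3.46, adjusted p = 0.0988). Igha, the IgA constant region, stood at 103, 58 and 14.3 TPM against 21, 1.60 and 1.03 TPM (change 3.22, adjusted p = 0.236). Of 20 B cell markers 5 reached the level needed for a test and none passed, and Ms4a1, a defining B cell marker, stood at or below 0.31 TPM in every tumour. The plasma cell list kept 1 call without Aoah tumour 1, Aoah tumour 3, vector tumour 2 or vector tumour 3, and had 4 without vector tumour 1.

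The MiXCR table gives receptor clones assembled from the same RNA, with no scaling to depth. T cell receptor beta (TRB) clones numbered 81, 87 and 157 with Aoah and 71, 17 and 29 with vector. Antibody heavy chain (IGH) clones numbered 422, 206 and 135 with Aoah and 84, 4 and 16 with vector. Light chain clones of the IGL rows numbered 1452, 1070 and 395 with Aoah and 384, 15 and 56 with vector. In these 3 of 20 measures the groups were apart, each higher with Aoah. The exact two-sided permutation p was 0.1 for each, the smallest that 3 against 3 allows, and 0.545 after adjustment over the 20 measures. T cell receptor alpha (TRA) clones overlapped at 31, 7 and 65 against 4, 7 and 20. Clone numbers do not count distinct receptors, which are given apart as clonotypes. Aoah tumour 3 had 135 IGH clones and 23 IGH clonotypes. In TRB, IGH and IGL the clonotype numbers overlapped between the groups. TRB clonotypes numbered 51, 51 and 73 with Aoah and 58, 6 and 21 with vector. The IGH clonotypes were 299, 137 and 23 against 74, 4 and 7, and the IGL clonotypes 361, 321 and 54 against 173, 13 and 30.

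The make-up of the antibody clones differed between tumours of the same group. The IgG/IGH share was 33.0%, 32.4% and 96.9% with Aoah and 7.46%, 33.3% and 68.8% with vector. The IgA/IGH share was 67.0%, 67.6% and 2.31% with Aoah and 89.6%, 66.7% and 31.3% with vector. Aoah tumours 1 and 2 were thus mostly IgA and Aoah tumour 3 almost wholly IgG. IGH clonality, which is high when few clones dominate, was 1.91%, 2.85% and 47.8% with Aoah and 1.18%, 0% and 5.63% with vector. What these shares are divided by is not stated in the sources used here. It is not the clone number given above in every tumour, since 33.3% and 66.7% of the 4 clones of vector tumour 2 are no whole clones.

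**Figure D4:**
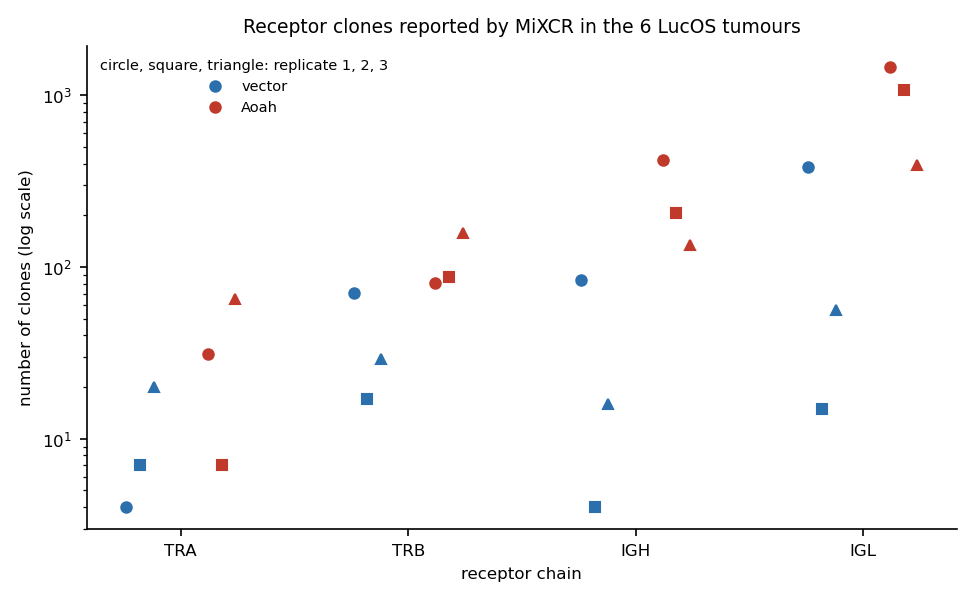
Number of clones, not of distinct clonotypes, reported for 4 receptor chains in each LucOS tumour on a log axis. Vector is in blue and Aoah in red, with circles, squares and triangles for replicates 1, 2 and 3. Every Aoah tumour lies above every vector tumour for TRB, IGH and IGL, by a small margin over vector tumour 1 for TRB and IGL, and the groups overlap for TRA.

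Myeloid genes did not pass. Of 15 tested neutrophil genes none passed, and 14 had changes below 0 (median -0.92). Retnlg, a neutrophil granule gene, had groups apart at 2.10, 1.54 and 4.01 TPM against 6.11, 12.6 and 11.2 TPM (change -1.64, adjusted p = 0.0985). The calprotectin gene S100a8 stood at 120.2, 221 and 58.6 TPM against 220.3, 386 and 440.1 TPM, with Aoah tumour 2 just above vector tumour 1. The list summed to 422, 603 and 522 TPM with Aoah and to 594, 2325 and 1497 TPM with vector. The defining neutrophil marker Ly6g stayed below 1 TPM in every tumour. No gene passed among 16 monocyte, 20 Kupffer cell, 26 macrophage and 10 dendritic cell genes. Clec4f, the Kupffer cell lectin, was high in 1 tumour of each group at 18.7, 10.0 and 51.7 TPM against 7.72, 43.9 and 3.12 TPM.

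Of 27 genes of stellate cells and fibroblasts 1 rose, Thy1, and 26 had changes above 0 (median 0.63). Groups were apart in 12, all higher, against 6.22% of all genes. Col1a2, a chain of type I collagen, stood at 9.45, 11.8 and 22.6 TPM against 4.41, 4.13 and 6.82 TPM (change 1.29, adjusted p = 0.117). All 23 endothelial genes had changes above 0 (median 0.51) and none passed. Mgp, an inhibitor of calcification made by stromal cells and chosen after its values were seen, rose by 2.76 (SE 0.47, adjusted p = 0.0179). The level of Mgp was 31.4, 24.3 and 117 TPM with Aoah and 6.75, 9.13 and 3.00 TPM with vector.

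Genes of growth leaned lower without a call. Of 32 MYC and ribosome biogenesis genes none passed, and 30 had changes below 0 (median -0.40). All 24 ribosomal protein genes had changes below 0 (median -0.43), and again none passed. Groups lay wholly lower in 2 of the 24, against 6.07% of all genes. Their summed level overlapped at 71822, 86081 and 40008 TPM with Aoah and 117426, 64259 and 93841 TPM with vector. Npm1, a nucleolar MYC target, stood at 2759, 2843 and 1217 TPM against 3589, 2471 and 3538 TPM (change -0.57, adjusted p = 0.461), with the lowest value in Aoah tumour 3. That tumour also had the highest mitochondrial share, and TPM values within a tumour share 1 total. Of 35 cell cycle genes none passed (median -0.18). The 13 mitochondrially encoded genes had a median change of 0.95 with none called. After these were removed and the rest rescaled, 98 genes were higher and 16 lower.

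Aoah was also compared with vector in the 8 Luc tumours, which lack the antigens. The 2 comparisons share no tumour, but both come from 1 fit and share its estimate of each gene's spread. As given above, Luc tumours labelled vector 1 and 3 had raised Aoah. Of the 101 LucOS rises 94 (93.1%) were also called higher there, and they make up 8.8% of the 1068 Luc rises, which are 7.93% of all genes tested. Of the 29 falls 26 (89.7%) were also called lower, or 1.35% of the 1920 Luc falls, which are 14.3% of all genes tested. None was called in the opposite direction, and 128 of the 130 genes had the same sign. Without the Luc tumours labelled vector 1 and 3, the Luc comparison gave 265 rises (1.97%) and 96 falls (0.713%). Of the 17 LucOS rises of that fit 14 (82.4%) were called higher in Luc, or 5.28% of the Luc rises, and of its 5 LucOS falls 1 (20%) was called lower, or 1.04% of the Luc falls. In it 129 of the 130 genes had the same sign in both. Across all genes the changes had a Pearson correlation of 0.55 and a Spearman correlation of 0.37, as a description over genes, which are not independent.

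The difference between the responses was tested as an interaction. Of 13466 genes 1 passed (0.00743%), and 1378 (10.2%) had an unadjusted p under 0.05. The median difference over all genes was 0.23. The gene was Mup13, a major urinary protein of the male-biased set. Mup13 was measured at 0.67, 0.92 and 0.29 TPM with Aoah and at 2.65, 2.99 and 0.39 TPM with vector. In Luc tumours it stood at 14.4, 42.6, 53.5 and 27.9 TPM with Aoah and at 1.40, 0, 0.14 and 1.71 TPM in those labelled vector. The change was -0.76 in LucOS and 4.28 in Luc, a difference of -5.05 (SE 0.68, adjusted p = 0.0315). Mup genes are near-identical copies, and the call was lost in 5 of the 6 fits that left out a LucOS tumour: no gene passed in those, and 2 passed without vector tumour 3. Without the Luc tumours labelled vector 1 and 3 the difference in Mup13 was -5.05 (adjusted p = 0.282) and no gene passed.

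Serpina7 and Ighg2c, which had larger changes in LucOS tumours, did not pass this test. Serpina7 changed by -1.73 in LucOS and by 0.09 in Luc tumours (difference -1.82, adjusted p = 0.35). Ighg2c changed by 3.91 in LucOS and by 1.10 in Luc tumours (difference 2.81, adjusted p = 0.443). For Sult2a8 the changes were 2.92 and 4.91, and for Socs3 -1.92 and -2.85. The plot of both comparisons sets the 130 genes against the line of equal change, and no count was made of those near it.

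**Figure D5:**
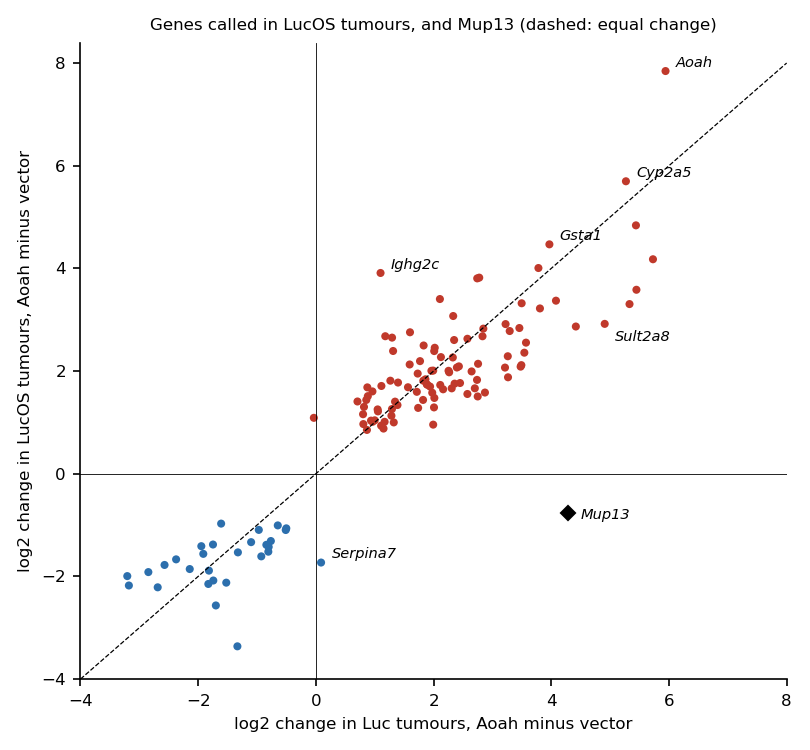
Log2 change with Aoah in Luc tumours (horizontal) and LucOS tumours (vertical) for the 130 genes called in LucOS tumours, red for rises and blue for falls, and for Mup13 (black diamond). Of the 130 genes 128 have the same sign in both, Ighg2c lies well above the dashed line of equal change, and Mup13 sits at 4.28 and -0.76.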

How the data were processed

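The authors quantified polyA RNA-seq of whole tumours with RSEM against build mm39, per the submitters' processing notes; aligner, annotation and strand setting are not given in the sources used here, so reads of overlapping or antisense genes cannot be told apart. The deposited expression values are log2(TPM + 1), read from the values themselves, and were taken back to TPM. Genes at 1 TPM or more in at least 3 of the 14 tumours were tested (13466 of 29923 symbols). TPM keeps no read depth, so no count test was run. A limma 3.58.1 model (R 4.3.3) with 4 group means over all 14 tumours, trend and robust variance, and Benjamini-Hochberg adjustment at 0.05 gave the LucOS contrast and its difference from the Luc contrast. The script was tested on simulated data.

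The authors' deposited DESeq2 table for LucOS holds mean signal (normalized counts), log2 fold changes, a Wald score and p-values; 95.6% of its 26939 identifiers could be named. Its direction was read from the sign of Aoah. In it 320 genes were higher (2%) and 125 lower (0.779%) of 16037 with an adjusted p, and 108 of the 124 limma calls it lists had its adjusted p under 0.05, 2 of the 124 having none. MiXCR clone numbers and shares are used as deposited and tested by exact permutation over the 3 and 3 tumours.

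The members and the 56 gene lists were chosen with earlier results of these data known. Named genes are Aoah, the 15 largest rises and falls, up to 6 list members with the smallest p, and the interaction genes; predicted genes, pseudogenes and receptor segments were left out of the largest changes and of the interaction genes. Genes picked outside that rule, besides those marked in the text, are the list members Afp, Alb, Cd8a, Clec4f, Gzmb, Ifng, Igha and Saa1 and the Akr1c genes. Promoters come from RefSeq tables of GRCm38.p6 by symbol (9784 of 13466 tested genes matched); no coordinates of the files' build were used. No column of per-sample values was left unused. Alternatives were other filters, pseudocounts, scalings, variance settings, a replicate block and leaving out tumours.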

Additional observations from a re-analysis of the deposited data

Results flagged for a closer look

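Mup13 was singled out because its response to Aoah differed between LucOS and Luc tumours by the interaction test: the difference was -5.05 on the log2 scale (SE 0.68, adjusted p = 0.0315, limma), with a change of -0.76 in LucOS and 4.28 in Luc tumours. All 4 Luc tumours with Aoah lay above all 4 labelled vector, whereas the LucOS groups overlapped. Its level is low in LucOS tumours and the Mup genes are near-identical copies. In the fits that left out a LucOS tumour the call held without vector tumour 3, and was lost in the other 5. Luc tumours labelled vector 1 and 3 had raised Aoah (18.6 and 54.8 TPM), and without them the adjusted p was 0.282.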

How the results depend on the processing

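With only 3 tumours a group the counts moved with most settings. Against 101 higher and 29 lower genes, a fit on LucOS tumours only gave 6 and 0 (1123 genes at an unadjusted p under 0.05 in that limma fit), no filter on low values 11 and 4, centring on each tumour's median 160 and 58, quantile normalization 177 and 79, and rescaling without mitochondrially encoded genes 98 and 16. The authors' deposited table has 320 and 125. Leaving out 1 tumour gave 11 to 299 higher and 2 to 54 lower, with the lowest counts without Aoah tumour 1 and the highest without vector tumour 2. Chosen after seeing the data, the fit without Aoah tumour 3 and vector tumour 2 together gave 150 and 11, and the fit without the Luc tumours labelled vector 1 and 3, whose Aoah was raised, gave 17 and 5. A pseudocount of 0.1, the stricter filter and a variance without trend and robust options kept both counts within 1.5 times. The replicate block gave 0 and 0 by limma, with 1081 genes at an unadjusted p under 0.05, and 7.84 for Aoah, which then missed the threshold (adjusted p = 0.0774); the numbers share no stated pairing, and same-numbered tumours deviated together with correlations of 0.0956, -0.554 and -0.0874, so they were not treated as pairs.

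The change of Aoah ran from 7.62 to 8.13 when 1 tumour was left out, missing the threshold without Aoah tumour 1 (adjusted p = 0.0532) and without Aoah tumour 3 (adjusted p = 0.0594). It was 7.84 (adjusted p = 5.5e-06) in the fit on LucOS tumours only and 7.84 (adjusted p = 1.21e-07) without the Luc tumours labelled vector 1 and 3, and was 7.52 without Aoah tumour 3 and vector tumour 2 together (adjusted p = 0.0554). The 1 gene with an interaction became 0 with a pseudocount of 0.1, with median centring, without mitochondrial genes, under the block, without Aoah tumour 3 and vector tumour 2, and without the Luc tumours labelled vector 1 and 3, and 2 with no filter; leaving out 1 tumour gave 0 to 2. The receptor measures with groups apart numbered 3 to 8 when 1 tumour was left out, since fewer tumours separate more easily. Saa1, not called, ran from -1.65 to 0.14 when 1 tumour was left out, turning positive without vector tumour 2, and was 0.0289 without it and Aoah tumour 3. The IgG share, higher with Aoah by its mean, was -0.292 points in medians and ran from -3.82 to 33.7 when 1 tumour was left out, and the IgA share was 0.292 in medians and ran from -32.5 to 4.81; both turned sign without Aoah tumour 3. The cause of these shifts was not tested. TPM gives no depth, so low values carry an unknown counting error.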
